A study of Rhodotorula toruloides with 36 samples.

Results

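The members described here were 149 transcripts of the oleaginous red yeast Rhodosporidium toruloides, out of 8490 native transcripts counted, that were lower in wild type after 48 h of growth than after 18 h and stayed near their wild-type level in the most heavily engineered strain, GB2. They were chosen by measured values. Counts were scaled to a common library total as CPM, the usual unit of read counts relative to depth. Transcripts had to average at least 20 CPM in WT at 18 h, and their log2 ratio of GB2 to WT, centred on the median transcript, had to lie within 0.5 of 0 at each time. From the 3064 transcripts that met these conditions the 150 with the lowest log2 ratio of 48 h to 18 h in WT were taken. One of them, PMK, was set aside because it was among 17 pathway genes the study lists. WT replicate 2 at 48 h was left out of the choice.

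The 36 libraries came from 4 engineered strains, BIS18, BIS14, BIS3 and GB2, with 3 libraries of each at either time, and from WT with 6. The study calls 48 h the stationary and 18 h the exponential phase. WT was strain IFO0880. BIS18, BIS14 and BIS3 carried P_GAPDH-BIS in that background, in increasing copy number. BIS is the α-bisabolene synthase of the grand fir Abies grandis and P_GAPDH is a native glycolytic promoter. GB2 was derived from BIS3 and carried P_ANT-BIS as well. Each engineered strain was 1 transformed line with the cassette at random loci, so copy number, site and line cannot be told apart. The labels give synthetic defined medium with 2% glucose for every culture and no treatment, and the paper states a lower glucose concentration. Library totals were 657951 to 3102440 counts at 48 h (n = 18) and 1134992 to 2029181 at 18 h (n = 18). Over both times BIS was counted 3 to 14 times in WT, 1301 to 2428 times in BIS18 and 6390 to 13077 times in BIS14. It was counted 12546 to 24076 times in BIS3 and 29482 to 38577 times in GB2. The hygromycin marker Hyg exceeded 1 count only in GB2. By these transcripts the libraries matched their labels, except that the raw BIS ranges of BIS14 and BIS3 overlapped. At 18 h alone the ranges were 8400 to 11609 in BIS14 and 14960 to 22987 in BIS3, without overlap.

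When a yeast culture uses up a nutrient, cells leave rapid growth, and in Saccharomyces cerevisiae transcripts for ribosomes and translation are among those known to fall. In R. toruloides, starvation for nitrogen with carbon left over is known to turn cells to lipid storage. The count table lists the members by number only, so no gene name or role is given here for any of them. They are described by their levels, their position on the scaffolds of the IFO0880 genome and their behaviour in each strain. Levels below are CPM with the library totals corrected by the trimmed mean of M-values (TMM), one value per library.

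In WT and GB2, whose values chose the members, the fall is a description. By the rule's own measure the WT change ranged from -4.18 to -0.88 on the log2 scale, with a median of -1.13, where the median of native transcripts with at least 20 CPM was 0.09. Of the members, 9 were at or below -2, 95 lay between -2 and -1 and 45 were above -1. The last members inside were transcripts 9387 (-0.88) and 10808 (-0.88), and the first outside were 16405 (-0.88) and 9120 (-0.87), so the end of the list marked no gap. The GB2 ratio reached -0.50 at 18 h in transcript 14648 and 0.50 at 48 h in transcript 8835, both inside, while transcripts 14254 (0.50 at 18 h) and 10647 (0.50 at 48 h) were just outside. The lowest WT levels at 18 h inside were 21.1 CPM in transcript 16236 and 21.8 CPM in transcript 11425, and the nearest transcripts below 20 CPM that met the rest of the rule were 15347 (15.7 CPM) and 14958 (15.2 CPM). The window on GB2 removed many transcripts. Of 672 transcripts with at least 20 CPM that fell as far in WT, 522 lay outside it, 318 of them with GB2 higher than WT by 0.5 or more at 48 h. Inside the window 135 of 149 members still had a GB2 ratio above 0 at 48 h (median 0.28), against 81 of 149 at 18 h (median 0.03). The rule chose low WT levels at 48 h, and the ratio at 48 h divides by them. Values above 0 at that time, inside the window or outside it, thus follow in part from the choice.

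**Figure D1:**
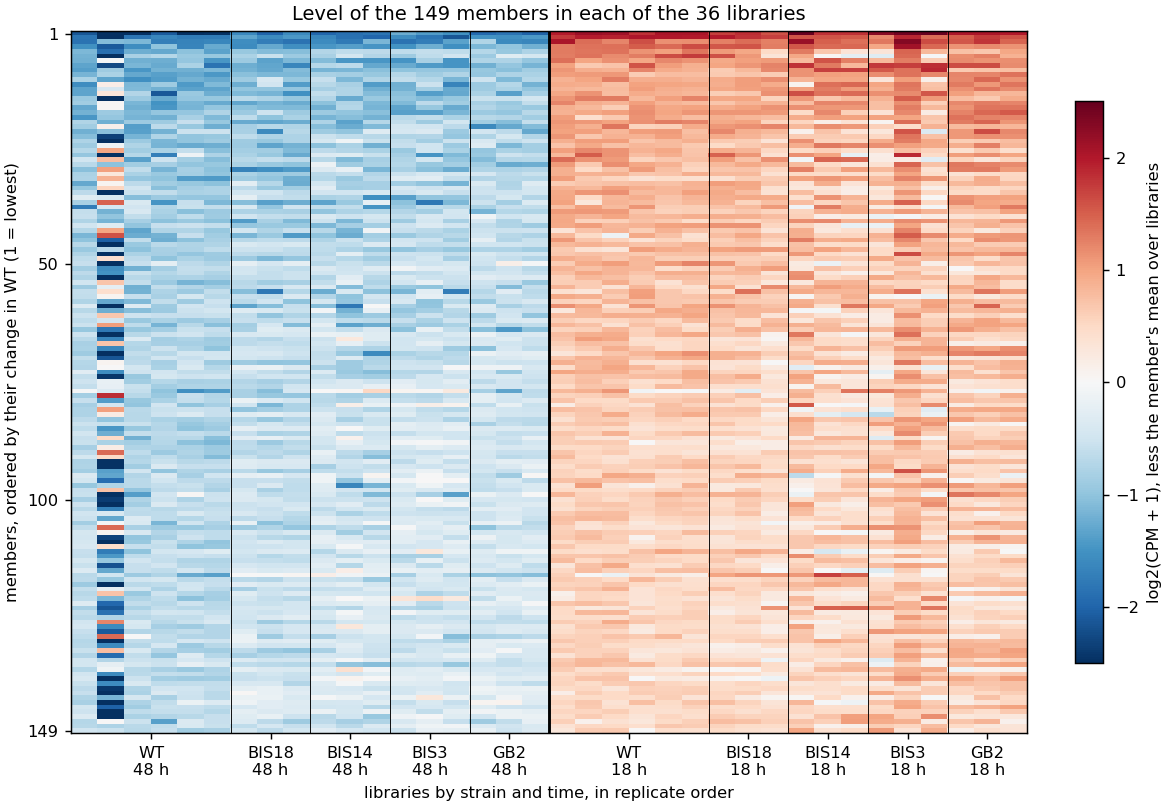
Level of each member (rows, ordered by its change in WT) in each library (columns), as log2(CPM + 1) less the member's own mean over 36 libraries, with TMM-corrected CPM; blue is below and red above that mean. The 48 h libraries stand left of the thick line and the 18 h libraries right of it, and WT replicate 2 at 48 h, the second column, differs from the other WT libraries of that time in both directions.

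WT replicate 2 at 48 h stood apart. It had the lowest total of all libraries, 657951 counts, and it lay below all 5 other WT libraries of that time in 79 members and above all 5 in 57. Over all 7679 transcripts tested these shares were 46.9% and 40.4%. Members held 1.25% of its counts, against 1.53% to 1.64% in the other WT libraries at 48 h. At 18 h WT replicates 1 to 3 all lay above replicates 4 to 6 in 27 members and all lay below them in 15. The share over all transcripts was not counted and the cause was not tested. The tests below used no WT library.

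BIS18, BIS14 and BIS3 were not used to choose the members, and the fall was tested there. The median member stood at 59.1, 60.7 and 61.3 CPM in the 3 BIS18 libraries at 48 h, against 138, 152 and 154 CPM in those at 18 h. In BIS14 the median member was at 59.9, 62.5 and 67.9 CPM at 48 h and at 141, 149 and 150.3 CPM at 18 h. In BIS3 it was at 62.2, 63.8 and 66.0 CPM at 48 h and at 136, 149.7 and 176 CPM at 18 h. The time points did not overlap in any of these strains, and the 18 h libraries of BIS3 were the most spread. Together the members took 1.58% to 1.64% of all counts at 48 h and 3.26% to 3.49% at 18 h in BIS18, 1.61% to 1.76% and 3.26% to 3.40% in BIS14, and 1.79% to 1.80% and 3.10% to 3.48% in BIS3. In bulk RNA a fall in the share of a transcript and a change in total RNA per cell cannot be told apart.

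Fitted with edgeR's quasi-likelihood test over all 7679 transcripts (Benjamini-Hochberg adjusted p under 0.05), all 149 members fell in BIS18, 141 of 149 in BIS14 and 141 of 149 in BIS3, and no member rose in any of them. Of all transcripts tested, 26.5% were lower at 48 h in BIS18, 25.6% in BIS14 and 28.5% in BIS3. A fall of at least 2-fold was called for 105 members in BIS18, 90 in BIS14 and 108 in BIS3, where the shares of all transcripts were 7.92%, 9.01% and 11.9%. In 138 members the fall was called in all 3 strains (17.5% of all transcripts), and in 70 members it was at least 2-fold in all 3 (5.35%). Every library at 48 h lay below every library at 18 h for 149 members in BIS18 (35.5% of all transcripts), 142 in BIS14 (26%) and 140 in BIS3 (31.7%).

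The median log2 change of the members was -1.21 in BIS18, -1.16 in BIS14 and -1.19 in BIS3, so that the median member kept 43.4%, 44.7% and 43.9% of its 18 h level. The median of all transcripts tested was -0.01, 0.02 and 0.06. The middle 50% of the members lay between -1.60 and -0.92 in BIS18, between -1.50 and -0.86 in BIS14 and between -1.54 and -0.98 in BIS3, with a median standard error of 0.17 in each strain. With library totals alone as the scale the members' median was -1.17 in BIS18, -1.02 in BIS14 and -0.79 in BIS3. On that scale the median of all transcripts also moved, to 0.01, 0.11 and 0.43, and relative to it the members' median was -1.18, -1.14 and -1.22. In a description that also includes the strains used to choose them, a fit of all libraries without WT replicate 2 at 48 h put the members' median change at -1.36 for WT, -1.22 for BIS18, -1.17 for BIS14, -1.20 for BIS3 and -1.18 for GB2.

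**Figure D2:**
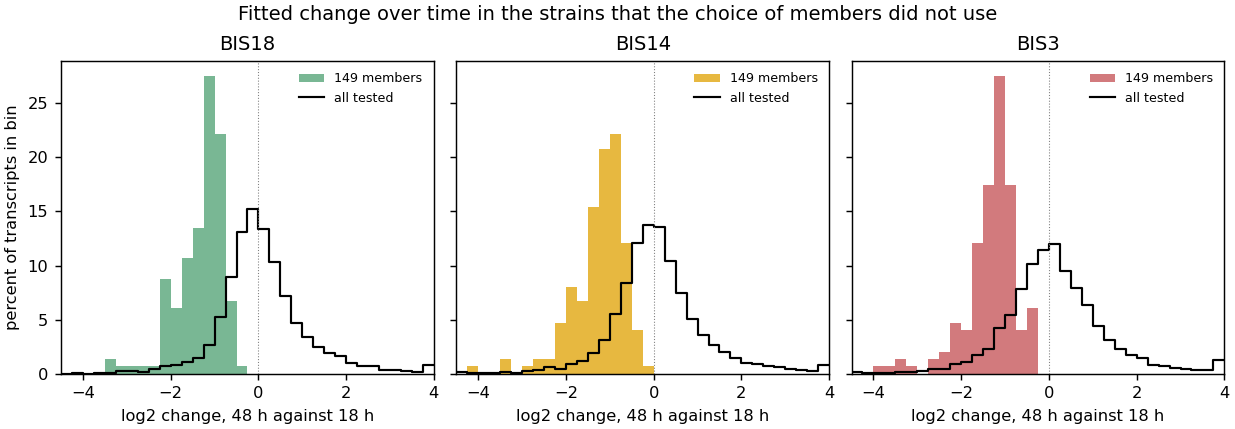
Distribution of the fitted log2 change, 48 h against 18 h, in BIS18, BIS14 and BIS3: coloured bars show the percent of the 149 members in each bin, the black line that of all transcripts tested, and the outermost bins also hold values beyond them. The members centre on -1.21, -1.16 and -1.19, with none above 0, and all transcripts centre near 0.

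The deepest falls in WT were deep in the other strains too. Transcript 11203, on scaffold 15 from 48375 to 51180, had 41.2, 31.2 and 41.9 CPM in BIS18 at 48 h, against 424, 462 and 387 CPM at 18 h. It had 31.4, 33.9 and 35.2 CPM in BIS14 at 48 h, against 761, 453 and 457 CPM at 18 h. It had 53.1, 47.9 and 44.2 CPM in BIS3 at 48 h, against 625, 698 and 805 CPM at 18 h. Its time points were far apart in every strain, with log2 changes of -3.46 ± 0.19 in BIS18, -4.04 ± 0.20 in BIS14 and -3.86 ± 0.19 in BIS3 (± SE, edgeR adjusted p at most 6.3e-11). In WT its lowest, median and highest levels were 6.15, 21.6 and 29.0 CPM at 48 h, against 452, 527 and 562 CPM at 18 h.

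Transcript 14045, on scaffold 5 from 349196 to 351953, stood at 41.2, 34.4 and 37.8 CPM in BIS18 at 48 h, against 415, 367 and 345 CPM at 18 h. In BIS14 it stood at 33.1, 28.0 and 25.5 CPM at 48 h, against 309.9, 313 and 304 CPM at 18 h. In BIS3 it stood at 34.9, 29.2 and 23.02 CPM at 48 h, against 242, 386 and 278 CPM at 18 h. The fall was of nearly the same size in each strain, with log2 changes of -3.30 ± 0.16, -3.39 ± 0.18 and -3.37 ± 0.17 in BIS18, BIS14 and BIS3. Transcript 11506, on scaffold 16, was a much weaker one, with 5.003 to 6.40 CPM in BIS18 at 48 h against 50.9 to 56.1 CPM at 18 h, and fell by 3.21 ± 0.28 on the log2 scale in BIS18, by 3.38 ± 0.30 in BIS14 and by 3.55 ± 0.28 in BIS3. Transcript 14790, on scaffold 6, fell by 2.95 ± 0.20, 2.92 ± 0.21 and 3.01 ± 0.20.

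Of the other 6 members with the lowest WT change, 5 fell in each of the 3 strains. They were transcripts 10881, 10074, 13333, 12159 and 13758, with log2 changes between -3.32 (13333 in BIS3) and -1.49 (10881 in BIS14). Transcript 13333 had 7.08, 6.25 and 6.04 CPM in BIS3 at 48 h, against 65.4, 63.3 and 68.7 CPM at 18 h. The sixth, transcript 15560, had 9.13, 11.9 and 9.69 CPM in BIS14 at 48 h, against 33.6, 17.1 and 13.99 CPM at 18 h. There the 18 h libraries were unequal, and its change of -1.03 ± 0.46 did not pass the test (adjusted p = 0.0694).

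**Figure D3:**
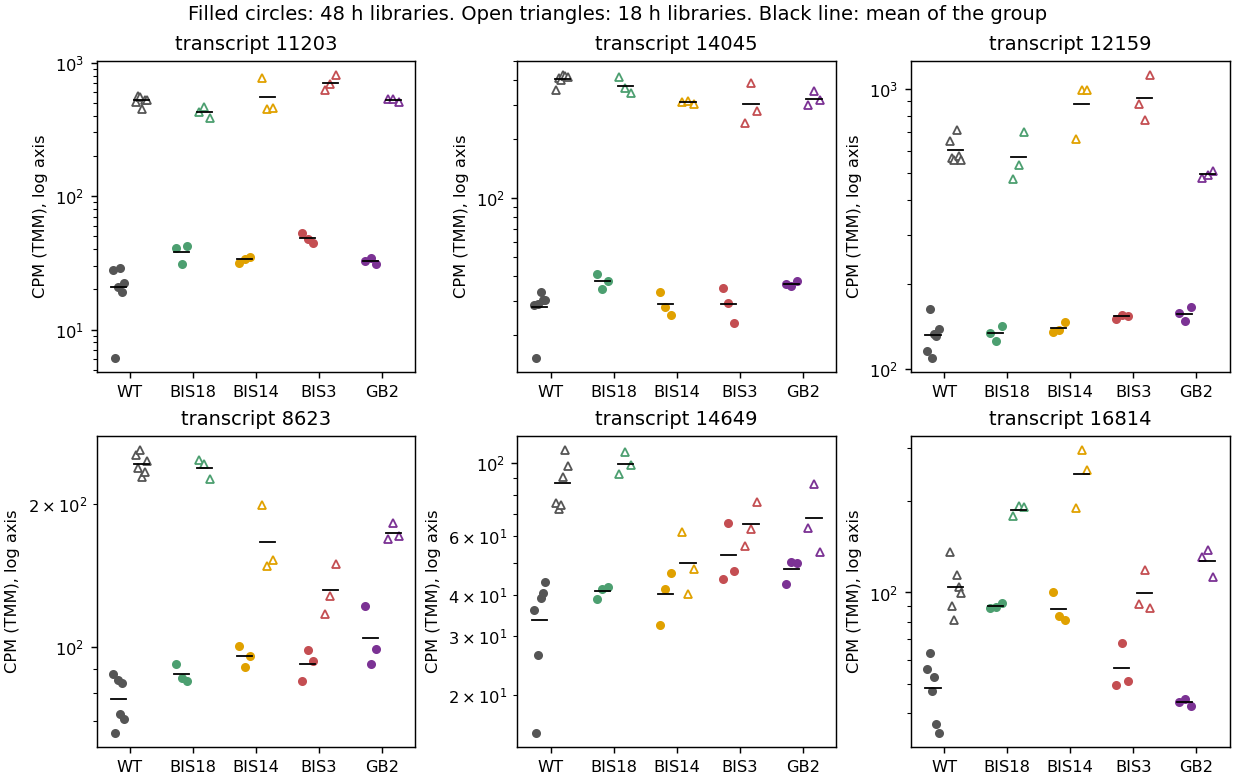
TMM-corrected CPM of 6 members in every library (log axes), by strain; filled circles are 48 h libraries, open triangles 18 h libraries and black lines group means, which in WT at 48 h include replicate 2. Transcripts 11203, 14045 and 12159 fell in every strain, while 8623 and 14649 differed between strains at 18 h and 16814 was lower in BIS3 than in BIS14 and BIS18 at both times.

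For levels that can be set beside each other, counts were divided by the listed length (FPKM, CPM per kilobase of the transcript). Averaged over the 9 libraries of BIS18, BIS14 and BIS3 at each time, the median member was at 30.1 FPKM at 48 h and at 69.4 FPKM at 18 h, where the median native transcript was at 29.0 and 27.7 FPKM. The other transcripts that met the conditions had medians of 37.0 FPKM at 48 h and 37.9 FPKM at 18 h. The median member thus lay below these at 48 h and above them at 18 h. Ranked from the highest of 8490 native transcripts, the median member stood at 4107 at 48 h and at 1851 at 18 h. The lowest member at 18 h was at 12.8 FPKM and the highest at 1263 FPKM.

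The 5 highest members at 18 h by FPKM were 13190, 12219, 15849, 14221 and 15152. Transcript 13190, on scaffold 3 from 792952 to 793587, had 404, 376 and 384 CPM in BIS18 at 48 h, against 709, 710.2 and 777 CPM at 18 h. Its log2 change was -0.90 ± 0.11 in BIS18, -1.21 ± 0.11 in BIS14 and -1.16 ± 0.11 in BIS3. Transcript 12219, on scaffold 2, fell by 0.81 ± 0.11, 1.24 ± 0.12 and 1.26 ± 0.12, and transcript 15849, on scaffold 8, by 0.64 ± 0.14, 0.72 ± 0.14 and 1.03 ± 0.14. The time points of these 3 did not overlap in BIS18, BIS14 or BIS3. Over the members as a whole, the 50 with the lowest 18 h levels had a median change of -1.40 (mean of the 3 strains), the middle 50 one of -1.09 and the 49 with the highest levels one of -1.11.

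A typical member was transcript 15907, on scaffold 8 from 216348 to 218008, whose log2 levels over the 10 groups were nearest to the members' median pattern (Pearson r = 0.997, a description). It had 26.5, 30.2 and 20.6 CPM in BIS18 at 48 h, against 69.8, 66.7 and 66.5 CPM at 18 h. Its log2 change was -1.39 ± 0.17 in BIS18, -1.45 ± 0.18 in BIS14 and -1.50 ± 0.17 in BIS3. The next was transcript 16508 (r = 0.996). The median member had r = 0.972 with that pattern, 138 of 149 were above 0.9, and the lowest, transcript 16041, had 0.739. Since every member was chosen to differ between the times in WT and GB2, high values follow in part from the choice.

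The exceptions were 11 members not called lower in all 3 strains. Of these, 8 did not pass in BIS14 and 8 did not pass in BIS3. The smallest falls, by the mean of the 3 strains, were those of transcripts 12867, 14649, 14380, 14022 and 14058. Transcript 12867, on scaffold 3, had 71.3, 97.3 and 72.1 CPM in BIS3 at 48 h, against 91.0, 119 and 79.2 CPM at 18 h, and the time points overlapped. Its log2 change was -0.50 ± 0.17 in BIS18 (adjusted p = 0.0165), -0.42 ± 0.18 in BIS14 (adjusted p = 0.0554) and -0.26 ± 0.17 in BIS3 (adjusted p = 0.208). Transcript 14058, on scaffold 5, had 15.4, 11.3 and 17.6 CPM in BIS14 at 48 h, against 10.3, 16.2 and 22.2 CPM at 18 h, an overlap with a change of -0.16 ± 0.29 (adjusted p = 0.663).

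Uneven 18 h libraries accompanied several of these. Transcript 14022, on scaffold 5, had 216, 179.9 and 197 CPM in BIS3 at 48 h, against 166, 392 and 238 CPM at 18 h. Transcript 14380 had 234, 222 and 229 CPM in BIS3 at 48 h, against 212, 407 and 276 CPM at 18 h. In both, replicate 2 at 18 h was the highest. That library was the highest of the 3 BIS3 libraries at 18 h in 101 of 149 members (67.8%), against 40.5% of all transcripts tested. The median coefficient of variation of the members between replicates was 7.45% at 48 h and 9.36% at 18 h in BIS18, 11.6% and 15.4% in BIS14, and 9.16% and 17.01% in BIS3. Without that library 134 members were called lower in BIS3, in place of 141, and 26.3% of all transcripts, in place of 28.5%. Besides 15560, the other members not called in every strain were 15160 (-0.37), 16288 (-0.43) and 15165 (-0.46), missed in BIS3, and 10359 (-0.48) and 9304 (-0.46), missed in BIS14, each with its log2 change there.

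A member could still differ between the engineered strains, because the rule looked only at GB2 and WT. At 18 h, 37 of 149 members differed between BIS3 and BIS18 (24.8%, against 27.7% of all transcripts). In BIS3 29 members were higher (19.5%, against 13.9% of all) and 8 lower (5.37%, against 13.8% of all). Between BIS14 and BIS18 12 members differed (8.05%, against 11.4% of all), 8 higher (5.37%, against 6.37% of all) and 4 lower (2.68%, against 5.03% of all) in BIS14, and between BIS3 and BIS14 4 differed (2.79% of all), 2 higher and 2 lower in BIS3, where RLE normalization gave 2 and 1 and DESeq2 5 and 2. At 48 h the counts were 11 between BIS3 and BIS18 (10.4% of all), 3 between BIS14 and BIS18 (3.07% of all) and 1 between BIS3 and BIS14 (1.9% of all). The shares by direction were not tested against those of all transcripts. A level near that of WT was part of the choice for GB2 only, and no such limit was set for BIS18, BIS14 or BIS3. By fitted size, no member differed by 2-fold or more between BIS3 and BIS18 at either time. Between BIS3 and BIS14 2 did at 18 h, and between BIS14 and BIS18 1 did at 48 h. The shares of all transcripts at that size were not counted. Single libraries moved the counts of members called and those over all transcripts. Without BIS14 18 h replicate 1, 25 members differed between BIS3 and BIS14 at 18 h, where 15.1% of all transcripts did. Without BIS3 48 h replicate 3, 3 members differed between BIS3 and BIS18 at 48 h, where 4.53% of all did. Of the 37 members called between BIS3 and BIS18 at 18 h, 13 were called under every one of 27 other fits, and of the 11 at 48 h, 2 were. In size the median difference of the members between BIS3 and BIS18 was 0.26 at 18 h and 0.20 at 48 h on the log2 scale, where it was 0.34 and 0.21 over all transcripts.

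**Figure D4:**
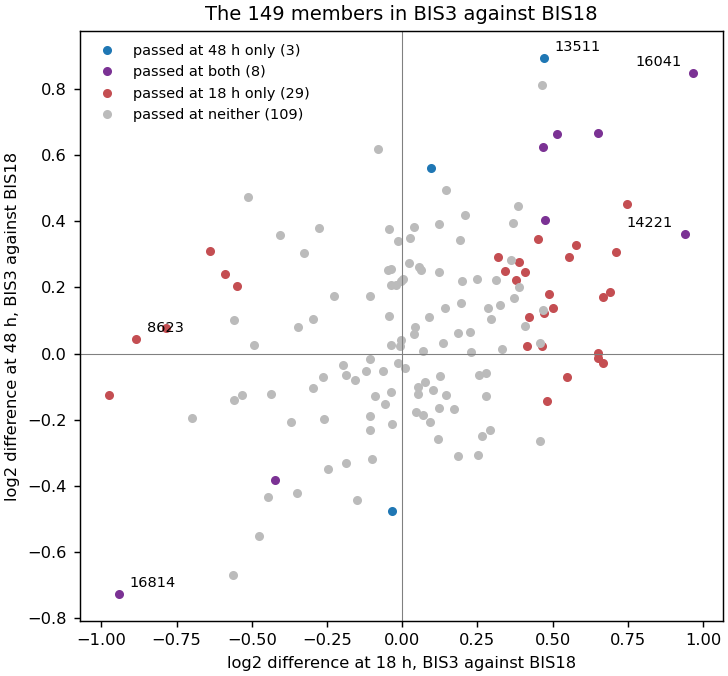
Fitted log2 difference of each member between BIS3 and BIS18 at 48 h (vertical axis) and at 18 h (horizontal axis), coloured by whether it passed an adjusted p under 0.05. Of the 149 members 3 passed at 48 h only, 8 at both times, 29 at 18 h only and 109 at neither.

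The largest rises in BIS3 over BIS18 at 18 h among members were those of transcripts 16041, 14221 and 15662. Transcript 16041, a short one of 305 bases on scaffold 8 from 532000 to 532304, had 72.0, 64.2 and 55.3 CPM in BIS3, against 34.2, 24.5 and 38.0 CPM in BIS18 at 18 h. At 48 h it had 31.4, 30.6 and 35.1 CPM in BIS3 and 16.5, 13.7 and 21.9 CPM in BIS18. It was higher in BIS3 than in BIS18 at both times without overlap. The log2 differences were 0.85 ± 0.23 at 48 h (edgeR adjusted p = 0.025) and 0.97 ± 0.23 at 18 h (adjusted p = 0.00419). Its change over time was close in BIS3 (-0.95 ± 0.22) and BIS18 (-0.83 ± 0.24). In WT at 18 h, transcript 16041 had 52.4, 55.5 and 65.0 CPM in replicates 1 to 3 and 28.0, 29.8 and 29.1 CPM in replicates 4 to 6. WT thus had levels near those of either strain. Transcript 14221, on scaffold 5 from 779589 to 783364, had 2696, 3307 and 2814 CPM in BIS3, against 1595, 1536 and 1369 CPM in BIS18 at 18 h (0.94 ± 0.11, adjusted p = 1.5e-05). In BIS14 it had 2439, 2285 and 2192 CPM at 18 h.

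Lower in BIS3 than in BIS18 at 18 h were transcripts 16291, 16814 and 8623 among others. Transcript 8623, on scaffold 1 from 304028 to 307456, had 247, 243 and 226 CPM in BIS18, 199, 148 and 152 CPM in BIS14 and 117.5, 128.5 and 149.7 CPM in BIS3 at 18 h. At 48 h the strains were nearly level, at 92.4, 86.2 and 85.1 CPM in BIS18, 100.45, 91.0 and 96.0 CPM in BIS14 and 85.0, 98.7 and 93.6 CPM in BIS3. At 18 h its log2 difference was -0.88 ± 0.12 between BIS3 and BIS18 (edgeR adjusted p = 4.8e-05) and -0.52 ± 0.12 between BIS14 and BIS18 (adjusted p = 0.00922). GB2 and WT, which chose the member, had 169 to 182.5 CPM and 228 to 259.5 CPM at 18 h.

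The size of the fall itself differed between BIS3 and BIS18 for 10 members (10.9% of all transcripts), between BIS3 and BIS14 for 1 (1.2% of all) and between BIS14 and BIS18 for 0 (0.0781% of all). At an unadjusted p under 0.05 this last count was 18, where the share of all transcripts was not counted. DESeq2 also called 0 (0.624% of all). In simulated data edgeR called 97 of 200 differences in change of size 1 on the log2 scale. A low count therefore does not show that the falls were alike. The 1 between BIS3 and BIS14 was a smaller fall in BIS3, where DESeq2 called 1 smaller and 3 deeper. In 6 of the 10 the fall was smaller in BIS3 (4.03% of members, against 4.90% of all) and in 4 it was deeper (2.68%, against 6.03% of all), but with other normalizations the split turned, to 3 and 5 with RLE and 4 and 6 with DESeq2. Leaving out BIS18 48 h replicate 1 gave 2 in place of 10 (7.27% of all transcripts), and leaving out BIS14 18 h replicate 1 gave 17 (18.9% of all). Transcript 8623 fell by 0.50 ± 0.12 in BIS3 and by 1.43 ± 0.12 in BIS18, a difference of 0.93 ± 0.17 (edgeR adjusted p = 0.00236). Transcript 14649 fell by 1.26 ± 0.17 in BIS18 and did not pass in BIS3 (-0.31 ± 0.18), a difference of 0.95 ± 0.24 (adjusted p = 0.0184). Its libraries had 44.5, 66.0 and 47.2 CPM at 48 h and 55.9, 63.3 and 76.3 CPM at 18 h in BIS3, which overlapped, against 38.9, 41.7 and 42.2 CPM and 92.1, 107 and 98.3 CPM in BIS18, which did not. In the other direction transcript 15465 fell by 1.42 ± 0.12 in BIS3 and by 0.77 ± 0.12 in BIS18, a difference of -0.65 ± 0.17 (adjusted p = 0.0184).

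At 48 h transcript 13511 was the member furthest above BIS18 in BIS3 and transcript 16814 the one furthest below. The transcripts around both differed likewise. Transcript 16814, on scaffold 9 from 925338 to 930210, had 49.6, 68.1 and 51.0 CPM in BIS3 and 89.2, 89.4 and 92.3 CPM in BIS18 at 48 h. At 18 h it had 91.9, 119 and 88.7 CPM in BIS3 and 179, 193 and 191 CPM in BIS18. BIS3 was the lower at both times without overlap, by -0.73 ± 0.16 at 48 h (edgeR adjusted p = 0.00707) and -0.94 ± 0.16 at 18 h (adjusted p = 0.000299). Of its 10 nearest tested neighbours on the scaffold, 10 were called lower in BIS3 at 48 h and 9 at 18 h. The shares of all transcripts were 6.34% and 13.8%. The median log2 differences of the neighbours were -1.07 and -1.10, and no WT level is given for them. BIS14 had 100.45, 83.9 and 81.0 CPM at 48 h and 190.4, 294 and 253 CPM at 18 h, and BIS3 lay below it too, by -0.71 at 48 h (adjusted p = 0.0294) and -1.34 at 18 h (adjusted p = 8.8e-05). In WT, which chose the member, its lowest, median and highest levels were 34.5, 50.1 and 63.0 CPM at 48 h, against 81.1, 102 and 136 CPM at 18 h. Every BIS18 and BIS14 library lay above the highest WT library of its time. The BIS3 libraries lay within the WT range at 18 h and near it at 48 h. The fall of 16814 over time was of common size for a member, -0.83 ± 0.17 in BIS3 and -1.04 ± 0.15 in BIS18.

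Transcript 13511, on scaffold 3 from 1553559 to 1555008, had 186, 205 and 176 CPM in BIS3 and 109, 97.6 and 91.9 CPM in BIS18 at 48 h, a log2 difference of 0.89 ± 0.17 (edgeR adjusted p = 0.00328). At 18 h it had 259, 199.9 and 343 CPM in BIS3 and 186, 205 and 177 CPM in BIS18, which overlapped. Of its 10 nearest tested neighbours 7 were called higher in BIS3 at 48 h (4.06% of all transcripts), with a median difference of 0.52. Among the 7 was the member 13513 at 0.67 ± 0.17. For transcript 16041, 0 of the 10 nearest neighbours were called higher in BIS3 at 48 h and 4 at 18 h (13.9% of all). Their median differences were -0.21 and 0.49.

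**Figure D5:**
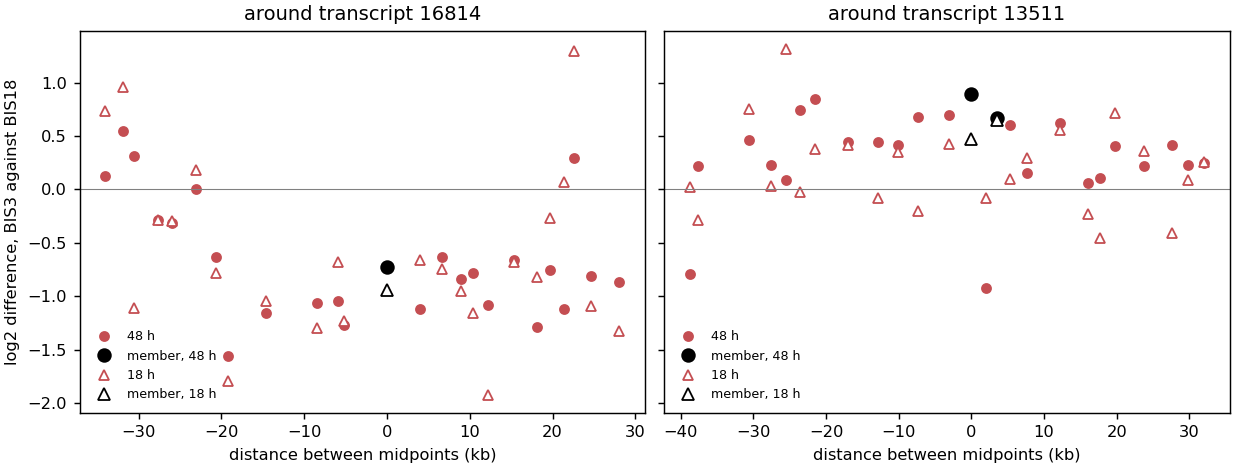
Log2 difference between BIS3 and BIS18 of the tested transcripts on each side of 16814 (scaffold 9) and of 13511 (scaffold 3), against the distance between transcript midpoints in kb; filled circles are 48 h, open triangles 18 h, black marks members. The nearest neighbours of 16814 centre on -1.07 at 48 h and -1.10 at 18 h, and around 13511 most lie above 0 at 48 h.

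The members were spread over 18 scaffolds, with 20 on scaffold 1, 16 on scaffold 8, 13 each on scaffolds 3, 6 and 7, and 1 on scaffold 10. On scaffold 10 only 75 of 396 native transcripts met the conditions of the rule, against 353 of 929 on scaffold 1. As a share of the transcripts that met them, members made up 1.33% on scaffold 10, 5.67% on scaffold 1 and 9.09% on scaffold 18. On the plus strand were 80 members and on the minus strand 69. The median listed span was 2031 bases in members and 2070 bases in the other transcripts that met the conditions. The span of 45 members (30.2%) overlapped that of another listed transcript, against 24.2% of all native transcripts. The library kit marks no strand, and reads of overlapping neighbours cannot be told apart.

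Next to another member stood 14 of 149 members (9.4%), as 7 adjacent pairs, where 3.6% of the other transcripts that met the conditions stood next to a member. No run of 3 occurred. Of the 7 pairs, 4 lay on the same strand and 3 were head to head, the starts facing each other. Transcripts 12007 and 12008, head to head on scaffold 18, overlap in their listed spans, and their log2 changes were -1.90 and -1.55 in BIS18, -1.81 and -1.26 in BIS14 and -1.98 and -1.73 in BIS3. Transcripts 14648 and 14649, head to head on scaffold 6 with 491 bases between them, moved apart in BIS14 and BIS3. Their log2 changes were -1.73 and -1.26 in BIS18 and -1.24 and -0.30 in BIS14. In BIS3 14648 fell by 1.34 ± 0.15 and 14649 (-0.31) did not pass the test. The pairs 9096 and 9097 and 14836 and 14837 lay on the same strand with 78 and 29 bases between them, and their changes in BIS18 were -0.65 and -0.77 (9096 and 9097) and -0.81 and -0.93 (14836 and 14837). Of 257 listed neighbours that were not members, 32.7% were lower at 48 h in BIS18, 27.2% in BIS14 and 31.9% in BIS3, against 24.8%, 24.1% and 27.0% of 7271 other transcripts. These differences were not tested.

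Known genes give a point of comparison. The 17 genes of fatty acid supply, the mevalonate pathway and the sterol branch that the study lists were linked to transcript numbers by the offset in the rule, which could not be checked against an annotation here. At 48 h 10 of 17 were lower in BIS18, 13 in BIS14 and 14 in BIS3, and 0 were higher. Of all transcripts tested, 26.5%, 25.6% and 28.5% were lower in these strains, and 26.9%, 26.2% and 30.9% were higher. PMK, phosphomevalonate kinase, was the only one among the 150 chosen. It had 124, 116 and 122 CPM in BIS18 at 48 h, against 273, 282 and 271 CPM at 18 h, and fell by 1.18 ± 0.14 in BIS18, 1.17 ± 0.15 in BIS14 and 1.06 ± 0.15 in BIS3. FAS2, a subunit of fatty acid synthase, fell further, by 2.36 ± 0.22, 2.62 ± 0.22 and 2.75 ± 0.22, but its GB2 ratio at 18 h was 1.79 and kept it out. MK, mevalonate kinase, changed by -1.18 ± 0.18, -1.49 ± 0.19 and -1.32 ± 0.19 and was outside with a GB2 ratio of -0.77 at 18 h. The members are therefore not all transcripts that fall with time. They are those with the lowest WT change among the transcripts within the GB2 window. Of the 3064 transcripts that met the other conditions, 894 were called lower at 48 h in BIS18 (29.2%), 830 in BIS14 (27.1%) and 928 in BIS3 (30.3%).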

How the data were processed

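Total RNA of 36 samples was made into TruSeq v2 libraries. The authors trimmed and filtered reads, mapped them with HISAT2 to the IFO0880 genome with cassette sequence and counted them per transcript with featureCounts; versions, strand setting and treatment of multiply mapped reads are not given in the sources used here. The deposited values are raw counts per transcript (8493 entries), not normalized, and 0 columns of per-sample values went unused.

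Members were chosen as the report states, and the members and gene lists were chosen with earlier results of these data known. Tests used edgeR 4.0.16 (R 4.3.3) on the 18 libraries of BIS18, BIS14 and BIS3, in 6 groups, with TMM, filterByExpr (7679 transcripts, all 149 members) and Benjamini-Hochberg adjustment over all of them. WT and GB2 were described only. The labels do not say that replicates were separate cultures, so p-values measure the spread between these samples, which may be technical. Replicates of these groups differed by 1.27 to 14.6 times counting noise (chi-square per degree of freedom, 18 pairs). On simulated counts with a log2 change of 1 put into 200 transcripts per comparison, edgeR called 169 for the change over time in BIS18. It called 168 for BIS3 against BIS18 at 18 h and 97 for the difference in change between these strains. Of the unchanged transcripts 6, 4 and 4 were called.

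Named transcripts follow a fixed rule: the 10 lowest in WT, the 5 highest, the 3 largest differences in each direction between BIS3 and BIS18, the smallest falls and every member not called in all 3 strains, adjacent pairs, transcripts at the edges of the rule, the 17 listed genes, and the 2 nearest the median pattern. RefSeq names of a different strain matched 0 of the identifiers, and no sequence is shown. Alternatives were RLE normalization, other filters, DESeq2 1.42.0, other sets of libraries, a replicate block, thinned counts, cassette transcripts left out, each library left out in turn and other choices of members. Tables and figures used Python 3.11.15, numpy 2.4.6, pandas 2.3.3 and matplotlib 3.10.9.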

Additional observations from a re-analysis of the deposited data

Results flagged for a closer look

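Among the 6 WT libraries at each time, 100 sets of values (48 named members, the members' median level and their share of counts, at 2 times) were searched for a library far from the other 5, which chance alone gives in about 1 set of 20. It was found in 22, and in 19 of these the library was WT replicate 2 at 48 h. Members held 1.25% of its counts, the lowest share of its group. It was the lowest WT library at 48 h for transcripts 12008 (21.5 CPM), 12219 (26.1), 13190 (27.7), 14045 (15.4), 14221 (146), 14836 (32.3), 15152 (139.9), 15465 (66.1) and 15560 (0). It was the highest for transcripts 10074 (50.7 CPM), 13513 (143), 14022 (307), 14648 (98.4), 15160 (47.6), 15165 (73.8), 16291 (66.1), 16508 (27.7) and 8932 (58.4). At 18 h WT replicate 4 was the highest for transcript 13333 (56.7 CPM) and the lowest for 15465 (333 CPM), and WT replicate 1 was the lowest for 14045 (357 CPM).

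The change over time differed between strains in 11 tests on members, by the difference of the changes itself in the edgeR fit. BIS3 less BIS18, it was 0.75 for transcript 16788, 0.93 for 8623, 0.63 for 16359, 0.86 for 15160, 0.83 for 14308, 0.95 for 14649, -0.65 for 15465, -0.62 for 9096, -0.58 for 14221 and -0.56 for 13380. BIS3 less BIS14, it was 1.02 for 16788 (± 0.22, adjusted p = 0.0372), which fell by 1.19 in BIS3 and by 2.21 in BIS14. Transcripts 16788, 16359, 14308 and 13380 are named here because of these values. Under each of the 27 other settings of the fit only 8623 of the 10 was called again every time.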

How the results depend on the processing

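The counts of members lower at 48 h stayed within 1.5 times of the main count, scaled to the number of members, in all 42 combinations of strain and setting besides leaving out a library. With each library left out in turn they were 147 to 149 in BIS18, 136 to 144 in BIS14 and 134 to 143 in BIS3. In the fits that gave these lowest and highest counts, 22.0% and 29.2% of all transcripts were called lower in BIS18. In BIS14 25.6% and 26.6% were, and in BIS3 26.3% and 30.3%. The direction held for every member in 79 of 81 pairs of strain and setting (27 settings), and in the other 2 a single member was not below 0 in BIS14, without BIS14 18 h replicate 3 or without BIS14 48 h replicate 2.

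Counts between strains depended more on the fit. In the order BIS14 against BIS18, BIS3 against BIS18 and BIS3 against BIS14, leaving out 1 library gave 4 to 21, 28 to 51 and 1 to 25 members at 18 h, 0 to 5, 3 to 20 and 0 to 3 at 48 h, and 0 to 2, 2 to 17 and 0 to 11 for the change over time. The highest of these came without BIS14 18 h replicate 1 in all but the first, and the cause was not tested. Without that library the share of all transcripts called between BIS3 and BIS18 was 34.3% at 18 h, 16.8% at 48 h and 18.9% for the change. Between BIS3 and BIS14 it was 15.1%, 5.26% and 14.9%. Between BIS14 and BIS18 it was 8.97% at 48 h and 0.607% for the change. The highest count of the first came without BIS3 18 h replicate 2, with 14.3% of all. With all 36 libraries in one fit the counts that moved were 4, 22 and 1 at 18 h (5.45%, 18.5% and 1.55% of all transcripts), 0, 3 and 0 at 48 h (0.52%, 3.11% and 0.913%), and 2 (BIS3 against BIS18) and 0 (BIS3 against BIS14) for the change over time (5.86% and 0.368%). Without WT 48 h replicate 2 in that fit, a setting chosen after seeing the data, they were 22 and 7 at 18 h (BIS14 against BIS18, BIS3 against BIS14, with 16.1% and 5.47% of all). At 48 h they were 18 and 2 (BIS3 against BIS18, BIS3 against BIS14, with 14.2% and 4.87% of all), and for the change over time 3 (BIS3 against BIS14, with 4.75% of all). With only the groups compared they were 2 and 0 at 18 h (BIS14 against BIS18, BIS3 against BIS14), 6 and 48 at 48 h (BIS14 and BIS3 against BIS18), and 16 (BIS3 against BIS18) and 0 (BIS3 against BIS14) for the change. Of all transcripts, this last setting called 2.09% and 0% at 18 h, 5.78% and 36.02% at 48 h, and 21.9% and 0.0265% for the change. DESeq2 gave 7 at 18 h, 2 at 48 h and 4 for the change between BIS3 and BIS14 (4.36%, 2.96% and 3.83% of all). Thinned counts gave 2 at 18 h (BIS3 against BIS14, 2.27% of all) and 1, 7 and 0 at 48 h (1.46%, 6.68% and 1.52%). For the change between BIS3 and BIS14 thinned counts gave 0 (0.619%). The replicate block moved only the change between BIS3 and BIS14, to 0 (0.43% of all). The labels tie nothing to the numbers, and 7 of 45 same-numbered pairs had deviations correlated over 0.1 (r from -0.25 to 0.29). Of the 10 differences in change between BIS3 and BIS18, 6 were positive with TMM, against 3 of 8 with RLE normalization and 4 of 10 with DESeq2.

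Choosing members with WT replicate 2 at 48 h kept 103 of 149 and gave 2 between BIS3 and BIS14 at 48 h and 6 for the change between BIS3 and BIS18. The 75 lowest gave 1 at 18 h (BIS3 against BIS14), 1, 2 and 0 at 48 h and 1 for the change (BIS3 against BIS14). The 300 lowest gave 36 at 48 h (BIS3 against BIS18) and 1 for the change (BIS3 against BIS14). In the main fit 2.79% of all transcripts differed between BIS3 and BIS14 at 18 h, and 3.07%, 10.4% and 1.9% at 48 h in the order above. For the change, 10.9% (BIS3 against BIS18) and 1.2% (BIS3 against BIS14) did. Within 2 listed transcripts of another member stood 24 members (16.1%) in place of 14. The share was 6.45% of the other transcripts that met the conditions and 6.67% of all native transcripts, a difference that was not tested. Depth limits the weakest members: the lowest count of a member in BIS18, BIS14 or BIS3 was 4 at 48 h and 11 at 18 h.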
